A study of Mus musculus with 5 samples.

Results

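The genes described here are 10 transcription factor genes of the RUNX family and other families grouped as recruiters of TLE co-repressors: Runx1, Runx2, Runx3 and their partner Cbfb, with Hhex, Myb, Gfi1, Foxp1, Ikzf1 and Zeb1. They were chosen by symbol, and all 10 were among the 11643 genes of the deposited expression table. RNA-seq was made from haematopoietic stem cells (HSCs) of C57BL/6 mouse bone marrow, sorted by surface markers (no lineage markers or CD48, with c-Kit, Sca-1 and CD150). The 3 control libraries came from mice labelled as control. Their columns are named VavC with a number, a name that the sources used here do not explain. The 2 other libraries came from mice in which floxed Tle1, Tle3 and Tle4 were to be deleted by Vav-Cre, a recombinase driven in all blood cells. The latter are labelled Tle1/3/4-deficient and are called mutant-labelled here. None of the ages, the pooling of animals or the Cre and floxed alleles of the controls is given in the sources used here. The design asks what loss of these 3 TLE genes does to gene expression in HSCs.

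TLE proteins, the mammalian relatives of Groucho, do not bind DNA themselves. They dock on transcription factors and turn those factors into repressors. RUNX proteins bind DNA with the help of CBFB, activate or repress depending on the partners at hand, and carry the TLE dock at the very end of the protein. RUNX1 is required for HSCs to form in the embryo, RUNX2 is best known as the master regulator of bone formation, and RUNX3 is best known from lymphocytes. HHEX docks TLE through a short motif near its amino end.

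The docking codons of the RUNX genes and Hhex are shown because they are the direct link to the TLE genes that were to be deleted. None are shown for the other factors. The coding strand is given 5′ to 3′ from GENCODE M21 transcripts (build GRCm38). Capitals mark the codons for valine, tryptophan, arginine, proline and tyrosine that close the RUNX proteins, followed by the stop codon, or the phenylalanine-to-leucine docking motif of Hhex.
Runx1: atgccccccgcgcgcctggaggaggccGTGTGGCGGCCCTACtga
Runx2: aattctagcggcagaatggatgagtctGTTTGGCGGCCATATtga
Runx3: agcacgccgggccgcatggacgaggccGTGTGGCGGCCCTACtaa
Hhex: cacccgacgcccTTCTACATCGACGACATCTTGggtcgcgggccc
In that build these exonic coding segments lie at chr16:92605655-92605699 (minus strand), chr17:44607905-44607949 (minus strand), chr4:135175788-135175832 (plus strand) and chr19:37434954-37434998 (plus strand). The closing codons were present in 3 of 3 complete Runx1 coding transcripts, 7 of 9 of Runx2 and 2 of 2 of Runx3, and the Hhex motif in 1 of 2. The expression table gives 1 value per gene, so transcripts with and without the dock were not separated.

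The RUNX genes also share a pattern at their promoters. The RUNX core site TGTGGT, searched on both strands (ACCACA on the other), occurred in 16.8% of 32851 mouse promoter windows from RefSeq (build GRCm38.p6). A window held 300 bases, 250 before a gene's start and 50 after it. Of 15 windows of 9 of these genes (Zeb1 was not matched), 3 held the site, 1 each for Runx1, Runx2 and Runx3. All 3 held the site as the same tandem pair, ACCACANNACCACA, which occurred on either strand in 7 of the 32851 windows (0.0213%). The Runx2 window held 1 further single site outside the pair. The pair was noticed after the sequences were read. Capitals mark the sites in these stretches, each given 5′ to 3′ on the gene's own strand.
Runx1: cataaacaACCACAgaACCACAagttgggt
Runx2: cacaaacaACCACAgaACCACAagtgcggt
Runx3: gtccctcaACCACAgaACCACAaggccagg
They lie at chr16:92826025-92826054 (minus strand), chr17:44814583-44814612 (minus strand) and chr4:135120503-135120532 (plus strand). The first base of the pair is base 29 after the start for Runx1, base 24 after it for Runx2, and base 134 before it for Runx3. Runx1 and Runx3 each have a second promoter window, which held no match. A match of letters is a description and not evidence of binding.

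Expression is in FPKM, fragment numbers scaled for transcript length and sequencing depth, which allows levels to be compared between genes. Of the table's genes, 10570 averaged 1 FPKM or more across the 5 libraries and were tested together on log2(FPKM + 1) with limma, and all 10 factor genes were among them. Fold changes are on that scale, mutant-labelled minus control, and understate the change of genes with low values. Adjusted p-values are over all 10570 genes. Whether libraries stem from different animals is not in the labels, and p-values therefore measure only how these libraries vary, which may be technical.

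Several facts of the libraries bear on every value. Tle3 went against its label, at 2.48, 4.97 and 5.61 FPKM in control replicates 1, 2 and 3 and at 32.3 and 31.6 FPKM in mutant-labelled replicates 1 and 2, so each direction given here rests on the labels. Gene-level values include exons outside a floxed part and do not test the deletion. Tle1 was at 0.811 to 3.33 FPKM in controls, against 2.84 and 4.37 FPKM in the mutant-labelled libraries, and Tle4 at 5.67, 0.0129 and 5.29 against 0.353 and 0.203 FPKM. Column totals ran from 599137 to 683822 FPKM, and absolute depth is unknown. All 15 HSC markers looked for were in the table, none at 0, and their summed level was 1070 to 1159 FPKM in controls, against 917 and 698 FPKM in mutant-labelled replicates 1 and 2. All 16 granulocyte and monocyte markers were also present, none at 0, and summed to 1007 to 3469 FPKM in controls against 11950 and 71641 FPKM. S100a8 weighed most, at 222 to 1657 FPKM in controls against 7679 and 37600 FPKM. Mpo, Elane, Ctsg and Fcnb were at 1.15, 0.985, 0.294 and 0.342 FPKM in mutant-labelled replicate 1, none above its highest control. In replicate 2 they were at 958, 1293, 305 and 209 FPKM. The other markers of this list were above every control in both libraries. Of 13 megakaryocyte and platelet markers 11 were in the table, summing to 454 to 1162 FPKM in controls against 8256 and 3735 FPKM. Of other lists, 9 of 11 erythroid markers summed to 832 to 1142 FPKM in controls against 1070 and 1689 FPKM, and 5 of 9 B cell markers to 48.8 to 59.5 against 21.2 and 161 FPKM. The 3 of 12 T and NK cell markers present summed to 37.1 to 105 against 346 and 194 FPKM, 4 of 7 of mast cells and basophils to 0 to 6.29 against 38.7 and 31.4 FPKM, 7 of 10 of dendritic cells and macrophages to 42.4 to 127 against 123 and 205 FPKM, and 7 of 10 of endothelium and stroma to 38.5 to 46.8 against 24.9 and 70.0 FPKM. Those at 0 numbered at most 3 per list and library, except that all 4 of mast cells and basophils were at 0 in control replicate 1. Single genes made up much of some sums. The megakaryocyte and platelet marker Pf4 was at 255 to 839 FPKM in controls against 7503 and 3023 FPKM. Of 11 fold changes of that list, 9 were positive (median 1.49) and 2 negative. Ppbp, Gp1ba, Vwf and Tubb1 overlapped between the groups, and the others were above every control in both mutant-labelled libraries. Different genes made up most of the mast cell and basophil sums of mutant-labelled replicates 1 and 2. Gzmb was at 33.1 and 1.30 FPKM there, and Prss34 at 0.0579 and 24.4 FPKM, while Cpa3 and Fcer1a overlapped between the groups. The erythroid marker Car2 was at 792 to 1076 FPKM in controls against 906 and 1075 FPKM. All 9 erythroid fold changes were positive, with a median of 1.95. Klf1, Epor, Gata1 and Car1 were above every control in both mutant-labelled libraries, and the others overlapped. H2-Aa was at 99.9 and 70.3 FPKM in control replicates 1 and 2, and lower in replicate 3, against 45.1 and 42.0 FPKM. Of 7 dendritic cell and macrophage fold changes, 6 were positive (median 2.24) and that of H2-Aa negative. Nkg7 was at 34.0 to 105 FPKM in controls against 345 and 193 FPKM. The other T and NK cell markers present, Cd4 and Thy1, reached at most 5.10 FPKM in any library and did not rise with it. Fewer cells of a type and less RNA per cell cannot be told apart in such bulk libraries. The genes of the gate were mixed in mutant-labelled replicate 2. Ly6a (Sca-1) was at 14.0 FPKM there against 57.8 to 199 in controls and Cd48 at 23.4 against 3.22 to 13.0 FPKM, both against the gate, while Slamf1 (CD150) was at 31.0 against 14.9 to 24.0 FPKM. Kit was at 102.3 and 101.6 FPKM in mutant-labelled replicates 1 and 2 against 149 to 185 FPKM in controls. The part of other cells in the results on these factors was not tested.

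None of the 10 factors passed the threshold over all genes (limma, adjusted p of 0.548 or more), where 0.0189% of all tested genes did. At an unadjusted p under 0.05 there was 1 of 10, Myb, against 8.45% of all genes, and none did with median-of-ratios scaling or quantile normalization. The groups did not overlap for Runx2, Runx3 and Myb, 3 of 10, against 26.1% of all genes. Lower were 2 of 10 (15.9% of all genes) and higher 1 of 10 (10.2% of all genes), so the count of separated factors is near the background. Of the 10 fold changes 8 were negative and 2 positive, with a median of -0.36. Over all tested genes the median was -0.10, with 55.7% negative. Median-of-ratios scaling moved the median of all genes to 0.014 and that of the 10 factors to -0.23, a similar upward shift for both.

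**Figure D1:**
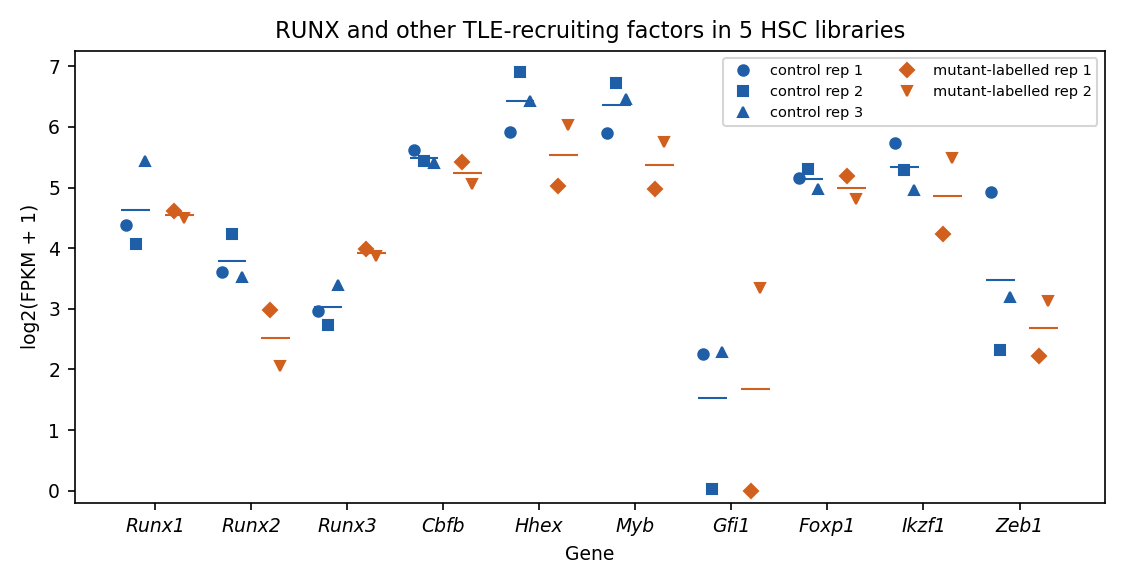
Each point is 1 library's log2(FPKM + 1) for 1 gene, in blue for the 3 controls and in orange for the 2 mutant-labelled libraries, and horizontal bars are group means on that scale. The orange points lie below every blue point for Runx2 and Myb and above every blue point for Runx3, while the groups overlap for the other genes.

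In controls the 10 genes formed a graded series. Hhex was highest, at 88.0 ± 30.0 FPKM, and Myb next, at 83.6 ± 23.5 FPKM (SD, n = 3), and their ranges overlapped. Then came Cbfb, Ikzf1, Foxp1, Runx1, Zeb1, Runx2, Runx3 and Gfi1. Every control library had Myb above Cbfb, Runx2 above Runx3, and Runx3 above Gfi1, with ranges that did not meet. The other neighbours in this order overlapped in range. Both Hhex and Myb stood in the upper part of the whole table, at percentiles 83.7 to 92.6 in controls, and Gfi1 in the lower part, at percentile 27.5 or below. In the mutant-labelled libraries the order began with Hhex, Myb and Cbfb again, but Runx3 stood ahead of Zeb1 and Runx2. There Runx3 was apart from both its neighbours, Runx1 above and Zeb1 below, and all other neighbours overlapped in range.

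Among the RUNX genes, the shares of Runx2 and Runx3 did not overlap between the groups, though none of the genes passed the threshold. The summed FPKM of Runx1, Runx2 and Runx3 was 37.9, 39.1 and 62.2 in the controls and 45.2 and 38.2 in the mutant-labelled libraries. The groups overlapped in that sum.

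Runx1 was at 19.9, 15.7 and 42.2 FPKM in control replicates 1, 2 and 3 and at 23.5 and 21.5 FPKM in mutant-labelled replicates 1 and 2. Both mutant-labelled values fell inside the control range, which control replicate 3 set at its upper end. The log2 fold change was -0.077 (SE 0.51, limma, adjusted p = 0.976). Its sign turned positive with median-of-ratios scaling (0.046) and without control replicate 3 (0.33), so no direction holds for Runx1.

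Runx2, whose product drives osteoblast formation, was at 11.1, 17.7 and 10.5 FPKM in the controls, against 6.88 and 3.16 FPKM in the mutant-labelled libraries. Both mutant-labelled libraries lay below every control. The group means were 13.1 ± 4.02 and 5.02 ± 2.63 FPKM (SD, n = 3 and 2), a log2 fold change of -1.27 (SE 0.62) that did not pass (limma, adjusted p = 0.625). It was -0.80 without mutant-labelled replicate 2 and -1.73 without replicate 1. The Runx2 locus overlaps Supt3, a coding gene, in the GENCODE M21 annotation, and whether counting used strand is not given. Supt3 was at 11.2 to 21.8 FPKM in controls, against 11.2 and 9.26 FPKM in the mutant-labelled libraries.

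Runx3 lay the other way. It was at 6.79, 5.61 and 9.47 FPKM in the controls, against 14.8 and 13.6 FPKM in the mutant-labelled libraries. Both mutant-labelled values were above every control and lay close to each other. The group means were 7.29 ± 1.98 and 14.2 ± 0.901 FPKM (SD, n = 3 and 2), a log2 fold change of 0.90 (SE 0.56) that did not pass (limma, adjusted p = 0.690). Leaving out each library in turn gave 0.75 to 1.08.

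Shares within the RUNX sum put these values side by side within each library, where a common scaling factor has no effect. Runx3 made up 17.9%, 14.4% and 15.2% of the sum in control replicates 1, 2 and 3 and 32.8% and 35.5% in mutant-labelled replicates 1 and 2. Runx2 made up 29.4%, 45.4% and 16.9% in the controls and 15.2% and 8.28% in the mutant-labelled libraries. The Runx3 share was thus higher in both mutant-labelled libraries than in any control, and the Runx2 share lower. Runx1 made up 40.2% to 67.9% in controls and 51.9% and 56.2% in the others, inside the control range. The level of Runx3 divided by that of Runx2 was 0.611, 0.316 and 0.903 in the controls and 2.16 and 4.29 in the mutant-labelled libraries, so the more abundant of the pair differed between the groups. These ratios were chosen after the values were seen. With 3 against 2 libraries a two-sided exact permutation test, taken as 2 times the smaller tail, cannot go below p = 0.2, so they are given as a description.

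**Figure D2:**
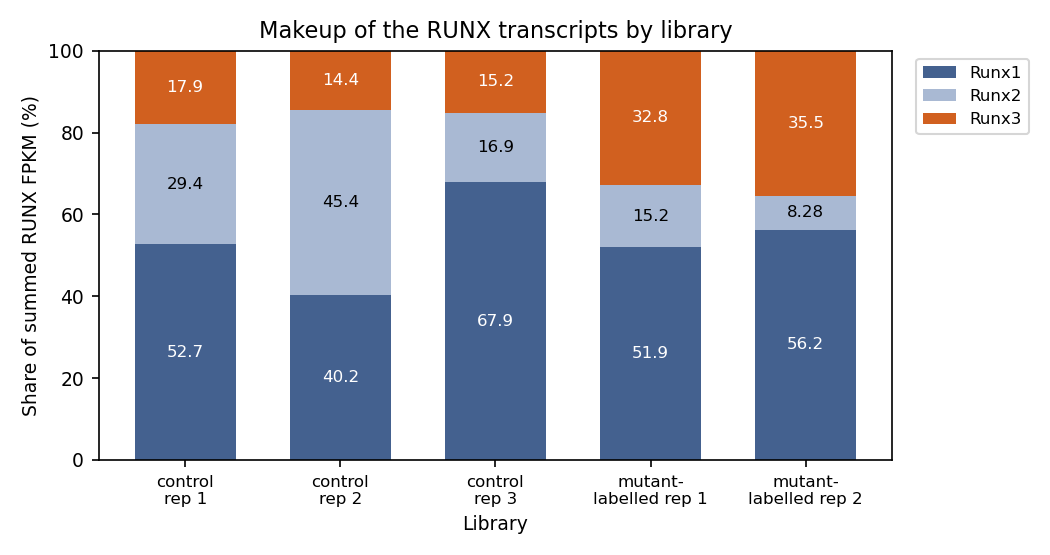
Stacked bars give the percentage of the summed FPKM of the 3 RUNX genes that came from each gene, 1 bar per library. The Runx3 segment covers 14.4% to 17.9% of the control bars and 32.8% and 35.5% of the mutant-labelled bars.

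Cbfb encodes the subunit that does not contact DNA and raises the affinity of every RUNX protein. It was at 48.4, 42.5 and 41.5 FPKM in the controls, against 42.0 and 32.5 FPKM in the mutant-labelled libraries. Replicate 1 of the latter lay within the control range and replicate 2 below it. The log2 fold change was -0.25 (SE 0.33, limma, adjusted p = 0.857). Cbfb and Foxp1 were the steadiest of the 10, spanning 0.56 and 0.49 on the log2(FPKM + 1) scale over the 5 libraries. The RUNX sum divided by Cbfb was 0.783, 0.919 and 1.498 in the controls and 1.08 and 1.18 in the mutant-labelled libraries, inside the control range.

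Myb and Hhex had the highest levels and similar profiles across libraries. Myb, which keeps progenitors proliferating and immature, was at 58.5, 105 and 87.3 FPKM in the controls, against 30.6 and 52.7 FPKM in the mutant-labelled libraries. Both mutant-labelled values lay below every control, that of replicate 2 by less than 1 control SD. The group means were 83.6 ± 23.5 and 41.7 ± 15.6 FPKM (SD, n = 3 and 2), a log2 fold change of -0.997 (SE 0.39, unadjusted p = 0.0353 in limma, adjusted p = 0.548). The groups overlapped for Myb after median-of-ratios scaling (fold change -0.87) and after quantile normalization (-0.93), and in the latter Cbfb was lower without overlap.

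Hhex encodes a homeodomain repressor needed for early lymphoid development. It was at 59.6, 119 and 85.1 FPKM in the controls, against 31.5 and 64.5 FPKM in the mutant-labelled libraries. Replicate 1 of the latter was below every control and replicate 2 was above control replicate 1, so the groups overlapped. The log2 fold change of -0.89 (SE 0.43) did not pass (limma, adjusted p = 0.622). It was -0.38 without mutant-labelled replicate 1 and -1.40 without replicate 2. The level of Myb divided by that of Hhex stayed within 0.880 to 1.03 in the controls and was 0.972 and 0.817 in the mutant-labelled libraries.

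Gfi1, a zinc finger repressor of granulocyte and stem cell genes, was the lowest of the set in controls and the most uneven. It was at 3.77, 0.0240 and 3.88 FPKM in the controls, was listed at 0 in mutant-labelled replicate 1 and was at 9.20 FPKM in replicate 2. The 2 mutant-labelled libraries thus held the lowest and the highest value of the 5. In this table a 0 can be a failed estimate, since Sin3a, a co-repressor scaffold in wide use, is listed at 0 in control replicate 3 and mutant-labelled replicate 2 and stands at 14.3 to 16.2 FPKM in the other libraries. The library with the highest Gfi1 also had the highest granulocyte and monocyte marker sum, and whether the extra Gfi1 came from such cells was not tested. Gfi1b, the close relative that acts in erythroid and megakaryocyte cells, was far more abundant, at 70.9, 78.5 and 41.0 FPKM in the controls, against 99.9 and 130 FPKM in the mutant-labelled libraries. Both mutant-labelled values of Gfi1b exceeded every control (log2 fold change 0.89, SE 0.36, limma, adjusted p = 0.569).

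Ikzf1 encodes Ikaros, a zinc finger factor that opens the lymphoid programme. It was at 52.4, 38.3 and 30.1 FPKM in the controls, against 17.8 and 44.0 FPKM in the mutant-labelled libraries. Replicate 1 of the latter was below every control and replicate 2 inside the control range. The log2 fold change of -0.47 (SE 0.48, limma, adjusted p = 0.807) turned to 0.16 without mutant-labelled replicate 1, so that library alone set its sign.

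Foxp1, a forkhead factor needed for early B cell development, was at 34.6, 38.6 and 30.4 FPKM in the controls, against 35.3 and 27.1 FPKM in the mutant-labelled libraries. The log2 fold change was -0.15 (SE 0.35, limma, adjusted p = 0.933) and 0.039 without mutant-labelled replicate 2. Zeb1, a zinc finger and homeodomain repressor known for epithelial-to-mesenchymal transition, was at 29.4, 3.99 and 8.14 FPKM in the controls, against 3.69 and 7.72 FPKM in the mutant-labelled libraries. Control replicate 1 stood far above all 4 other libraries for Zeb1. The groups overlapped and the log2 fold change of -0.80 (SE 0.87) did not pass (limma, adjusted p = 0.817). It was -0.079 without control replicate 1, so most of the difference rested on that library.

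**Figure D3:**
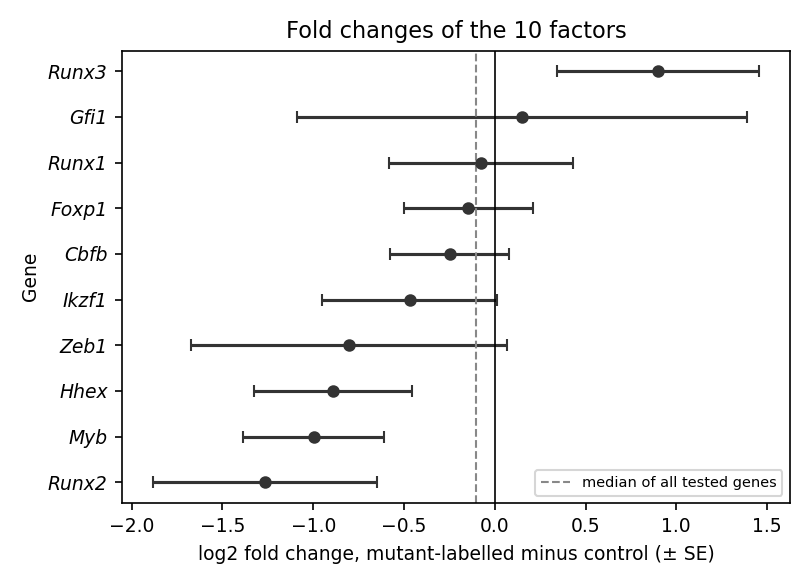
Points are limma log2 fold changes (mutant-labelled minus control, on log2(FPKM + 1)) and bars are standard errors, with a dashed line at the median of all tested genes (-0.10). Runx3 at 0.90 and Runx2 at -1.27 are the extremes, and Gfi1 has the widest error (SE 1.24).

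The 2 mutant-labelled libraries differed from each other for most of the non-RUNX factors. Hhex, Myb, Ikzf1, Zeb1 and Gfi1 were all lower in replicate 1 than in replicate 2, by 2.05-fold for Hhex, 1.72-fold for Myb, 2.48-fold for Ikzf1 and 2.09-fold for Zeb1. Runx1 and Runx3 differed between them by only 1.09-fold. Runx2, Cbfb and Foxp1 were higher in replicate 1, by 2.18-fold, 1.29-fold and 1.30-fold. The median SD of log2(FPKM + 1) over all tested genes was 0.469 between these libraries. Runx1 and Runx3 lay well under that, at 0.0862 and 0.0856, and Cbfb and Foxp1 were also under it. The other 6 lay over it, from Myb at 0.541 and Zeb1 at 0.633 through Runx2 at 0.651, Hhex at 0.716 and Ikzf1 at 0.893 to Gfi1 at 2.37. As many of all tested genes lie over their median as under it, so 6 of 10 is near the background. Summed over the 10 factors, the level was 324, 387 and 349 FPKM in controls, against 206 and 276 FPKM in mutant-labelled replicates 1 and 2, a sum in which Hhex and Myb weigh most.

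Genes with the most similar profile were sought for each factor that spanned at least 1 on the log2(FPKM + 1) scale, by the smallest root mean square difference between centred profiles over the 5 libraries. The search covered 6610 genes averaging 10 FPKM or more. For Hhex the nearest genes were Zfp787 (0.114) and Myb itself (0.118). For Myb they were Pex6 (0.0756) and Zfp277 (0.0896). Runx2 was nearest to Dscc1 (0.0537) and Ppp3ca (0.0840), and Runx3 to Map2k4 (0.0692) and B4galt1 (0.0803). Ikzf1 was nearest to Ano6 (0.0553) and Afg3l2 (0.0750), Runx1 to Dnajb12 (0.114) and Elmod3 (0.125), Zeb1 to Rhoh (0.183) and Rbm34 (0.185), and Gfi1 to Ccpg1 (0.235) and Pag1 (0.271). With 5 libraries and many candidates, close matches are easy to find and say nothing of shared control.

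The relatives of these factors were mixed. Of 11 family relatives looked for, 7 were in the table and 6 were tested, with none past the threshold, 2 fold changes positive and 4 negative, and a median of -0.093. Next to Gfi1b, the most abundant was Mybl2, a cell cycle relative of Myb, at 15.025 to 39.0 FPKM in controls, against 23.7 and 21.8 FPKM in the mutant-labelled libraries. Among the Ikaros relatives, named after their values were seen, Ikzf2 (Helios) was at 10.6, 13.7 and 8.40 FPKM against 7.48 and 6.20 FPKM, and Ikzf5 at 4.85, 6.15 and 7.07 against 8.03 and 15.4 FPKM. Neither pair of groups overlapped, in opposite directions. Of 26 other genes for TLE-recruiting factors only 5 were in the table and 4 were tested, with none past the threshold, so this group can hardly be judged. Its most abundant members were Hes6, at 64.6 to 86.3 FPKM in controls, against 163 and 68.0 FPKM, and Rela, at 64.9 to 93.7 FPKM against 53.5 and 72.5 FPKM.

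Genes for the co-repressors and co-activators that these factors use were tested for 24 of 26. None passed over all genes, 10 fold changes were positive and 14 negative, and the median was -0.043. Groups did not overlap for 3 higher and 4 lower, or 7 of 24, against 26.1% of all genes. Suv39h1, a histone H3 lysine methyltransferase that works with RUNX1 and GFI1, was at 45.2, 34.0 and 38.7 FPKM in the controls, against 20.0 and 15.1 FPKM in the mutant-labelled libraries. It lay below every control in both (log2 fold change -1.12, SE 0.37, limma, adjusted p = 0.496). Rbbp7, a histone-binding subunit of the NuRD and SIN3 complexes, was at 275, 215 and 260 FPKM against 127 and 206 FPKM, again lower in both (log2 fold change -0.62, adjusted p = 0.621). Hdac1, the deacetylase at the core of several of these complexes, was at 112 to 147 FPKM in controls, against 146 and 119 FPKM in the mutant-labelled libraries. Of the other TLE genes, Tle2 was at 12.6 to 30.5 FPKM in controls, against 17.5 and 13.2 FPKM, and Tle6 at 22.2 to 43.4 FPKM against 30.4 and 19.3 FPKM.

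Known target genes were listed from general knowledge, but with earlier results of these data known. Their counts beside those of all genes are therefore a description and not a test. Of 22 tested RUNX targets none passed over all genes, 14 fold changes were positive and 8 negative, and the median was 0.46. Groups did not overlap for 7 higher (against 10.2% of all genes) and 4 lower (against 15.9% of all genes). Of the 23 targets with values, 10 are also markers of HSCs, granulocytes, megakaryocytes or T cells, whose summed levels are given above. Pf4, a platelet chemokine, was at 839, 512 and 255 FPKM in the controls, against 7503 and 3023 FPKM in the mutant-labelled libraries (log2 fold change 3.31, adjusted p = 0.345). Cebpe, a granulocyte transcription factor, was at 0.0634, 2.67 and 4.56 FPKM against 12.9 and 161 FPKM (adjusted p = 0.439). Elane, a neutrophil protease, was at 1.013, 35.0 and 36.2 FPKM against 0.985 and 1293 FPKM. Without mutant-labelled replicate 2 the median of the RUNX targets was -0.69, with 10 positive and 11 negative, and without replicate 1 it was 1.45. The direction of this list thus rested on mutant-labelled replicate 2. What in that library set it was not tested.

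In the other direction among RUNX targets, named after its values were seen, Prkcq, a protein kinase C isoform, was at 21.7, 52.9 and 66.6 FPKM in the controls, against 11.5 and 12.4 FPKM in the mutant-labelled libraries. It was lower in each mutant-labelled library than in any control and did not pass the threshold over all genes.

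Of 19 tested GFI1 targets 14 fold changes were positive and 5 negative, with a median of 0.89 and no gene past the threshold. Groups did not overlap for 7 higher (against 10.2% of all genes) and 2 lower (against 15.9% of all genes). Without mutant-labelled replicate 2 the median was -0.17, with 9 positive and 9 negative of 18, so this direction too rested on that library. The RUNX and GFI1 lists share Gfi1, Gfi1b, Csf1r, Cdkn1a, Cebpe, Cebpa, Spi1 and Elane, so their counts are not independent. Gfi1 thus counts among its own targets. Gfi1b, Csf1r, Cdkn1a and Cebpe were counted as higher without overlap in both lists. Csf1r was at 0.0177 to 0.0320 FPKM in controls, against 1.73 and 11.3 FPKM in the mutant-labelled libraries. It averaged 1 FPKM or more only through the latter, so its higher level was a condition of being tested. The abundant apoptosis gene Bax was at 140 to 156 FPKM in controls, against 224 and 132 FPKM in the mutant-labelled libraries. MYB targets were balanced, with 10 positive and 9 negative of 19 and a median of 0.067. Of these targets 3 were higher without overlap (against 10.2% of all genes) and 4 lower (against 15.9% of all genes). The most abundant, the chaperone Hspa8, was at 1771, 1811 and 1791 FPKM in the controls, against 1553 and 1242 FPKM in the mutant-labelled libraries, lower in both (log2 fold change -0.37, limma, adjusted p = 0.719). The haematopoietic regulator Lmo2 was at 484 to 653 FPKM in controls, against 530 and 341 FPKM. Cd34, a progenitor surface protein on the same list, was at 210, 141 and 187 FPKM against 41.7 and 26.5 FPKM (log2 fold change -2.38, adjusted p = 0.208).

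Targets of Ikaros, FOXP1, HHEX and ZEB1 were tested for 14 of 26, with 8 positive and 6 negative, a median of 0.18 and none past the threshold. Groups did not overlap for 2 higher (against 10.2% of all genes) and 5 lower (against 15.9% of all genes). Ccnd2, a G1 cyclin, was at 492, 103 and 92.2 FPKM in the controls, against 81.0 and 67.2 FPKM in the mutant-labelled libraries. Control replicate 1, which also had the highest Zeb1 and Ikzf1, stood far above the rest for this gene. Ccnd3, the companion cyclin, was at 192 to 232 FPKM in controls, against 223 and 472 FPKM. Vpreb1, a surrogate light chain gene of B cell precursors, was listed at 0, 0 and 0.0794 FPKM in the controls and stood at 4.70 and 37.1 FPKM in the mutant-labelled libraries. Vpreb1 averaged 1 FPKM or more only through the latter, so its higher level was a condition of being tested.

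**Figure D4:**
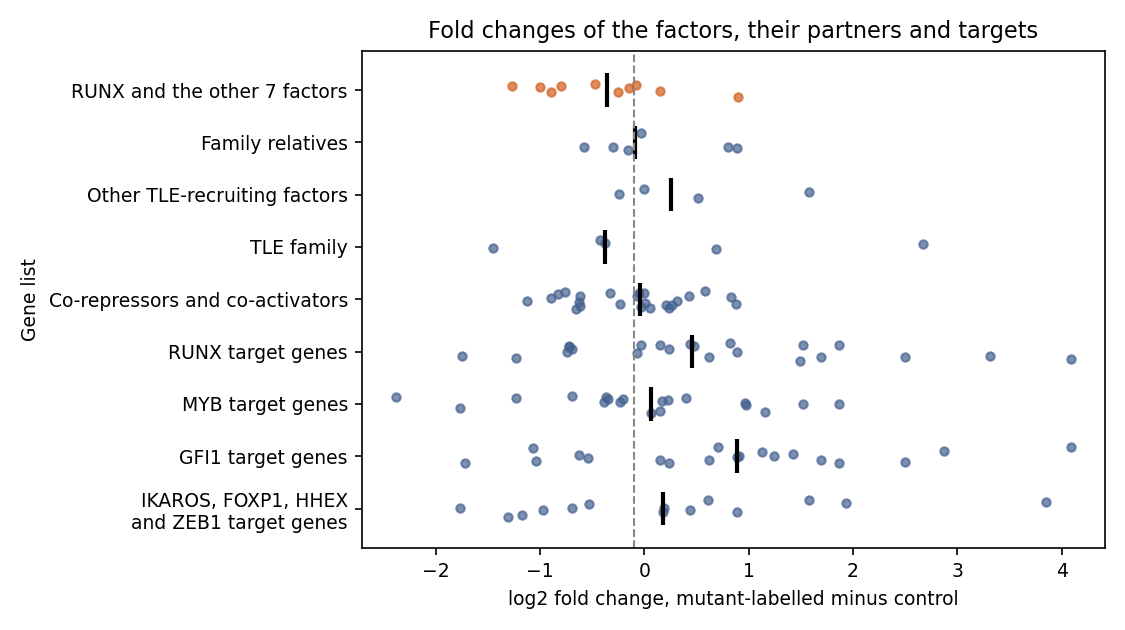
Each point is the limma log2 fold change (mutant-labelled minus control) of 1 tested gene, by list, with black bars at list medians and a dashed line at the median of all tested genes (-0.10). The 10 factors run from -1.27 to 0.90, a narrower spread than the RUNX and GFI1 target lists, which reach 4.09 at Cebpe.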

How the data were processed

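RNA-seq of 5 sorted HSC libraries (3 control, 2 mutant-labelled) was deposited by the authors as 1 table of FPKM per gene symbol. Build mm9, TopHat and edgeR are named, without version or role, per the submitters' processing notes. No annotation, strand setting or filter is given in the sources used here. FPKM is relative to each library's total, and very abundant transcripts therefore depress the other values of their library.

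Of 11643 genes, the 10570 averaging 1 FPKM or more were tested on log2(FPKM + 1) using R 4.3.3 and its limma package (3.58.1), with a trended, moderated, two-sided test of group alone, Benjamini-Hochberg adjustment and a threshold of 0.05. The fit was run on simulated data with planted changes larger than those of the factors here. That run does not speak to power for changes of their size. Groups and replicate numbers came from sample titles. Alternatives covered pseudocounts of 0.1 and 5, no filter or a mean of at least 5 FPKM, 2 scalings, 3 changes to the variance model, the replicate number as a block, and leaving out each library. Counts of factors without overlap, and list medians without each mutant-labelled library, were added after the data were seen.

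The factors and gene lists were chosen with earlier results of these data known. Text names all 10 factors, TLE genes, and per list any gene past the threshold, otherwise its 2 most abundant genes and the largest change without overlap. Promoters came from RefSeq, coding ends and overlaps from GENCODE M21, both on GRCm38, matched by symbol. Sequence searches and plots used Python 3.11.15, matplotlib 3.10.9, scipy 1.17.1 and pandas 2.3.3. Some genes of the lists are not reported here by name.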

Additional observations from a re-analysis of the deposited data

How the results depend on the processing

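No factor was called under any of the 15 alternatives, and the fold changes of Runx2, Runx3, Cbfb, Hhex, Myb and Zeb1 kept their sign in all of them. Signs turned for Runx1 with median-of-ratios scaling (0.046), the replicate block (0.33) and without control replicate 3 (0.33). They turned for Gfi1 with a pseudocount of 0.1 (-0.36), array weights (-0.051), and without control replicate 2 (-0.60) or mutant-labelled replicate 2 (-1.53), its range with each library left out being -1.53 to 1.83. They also turned for Foxp1 (0.039, without mutant-labelled replicate 2) and Ikzf1 (0.16, without mutant-labelled replicate 1, and -1.10 without replicate 2). The cause was not tested. The median fold change of the factors was -0.42 and -0.32 with pseudocounts of 0.1 and 5, -0.47 with the filter at 5 FPKM, which drops Gfi1, -0.23 with median-of-ratios scaling, -0.28 with quantile normalization, -0.33 with array weights and -0.47 with the replicate block. Leaving out each library gave -0.95 to -0.19. The count of factors without overlap rose to between 4 and 7 with a library left out (3 with all), while the share of all genes rose to 37.6% to 55.5% from 26.1%, as fewer libraries overlap less. Over all genes 2 were called in the reported run, 0 with a pseudocount of 0.1, without the filter and with array weights, 4 with a pseudocount of 5 and with median-of-ratios scaling, 1 without trend, 5 with robust fitting and 22 with the replicate block. Leaving out each library gave 0 to 5. Equal replicate numbers pair nothing by the labels, and the correlations of same-numbered deviations were 0.0352 and 0.00687. Runs without 1 mutant-labelled library assume that the lone library varies like the controls. With absolute depth unknown, no counting error can be given, which matters most for Gfi1 and the low TLE genes.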
